A study of Homo sapiens with 6 samples.

Results

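7SK RNA was examined at single-base resolution in Nm-mut-seq libraries of chromatin-associated RNA, through the positions of the gene RN7SK that the deposited mutation tables list on the gene's own strand. 7SK is an abundant nuclear noncoding RNA made by RNA polymerase III. It scaffolds a ribonucleoprotein that holds the elongation kinase P-TEFb, made of CDK9 and a cyclin T, in an inactive form together with HEXIM1 or HEXIM2. MEPCE caps its 5′ end, LARP7 binds its 3′ terminal hairpin, and release of P-TEFb from the particle allows RNA polymerase II to leave promoter-proximal pausing. 2′-O-methylation (Nm) is a methyl group on the ribose of any of the 4 bases of RNA, and Nm-mut-seq reads it at G, A and C as a change to T.

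RN7SK (ENSG00000283293.1, GENCODE v44 type snRNA) lies on the plus strand of chr6:52995621-52995948 (hg38), a single 328 nt transcript with 256 G, A or C. Positions are counted from 1 at its first annotated base. The imbalanced dNTP table listed 31 of them among 176343 positions of the whole series, and the balanced dNTP table listed 27 among 246881. 9 positions were in both tables and 49 in either. The antisense strand had 0 in both tables.

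The RNA came from HepG2 cells, a human liver cancer line. In each of 3 replicates, chromatin-associated RNA depleted of rRNA and of RNA shorter than 200 nt was ligated to an adapter, and the ligated RNA was divided between a pair of reverse transcription reactions. Both had dATP at 1 mM, and the other dNTPs were at 2 µM in the imbalanced reaction (n = 3) and at 1000 µM in the balanced reaction, the input (n = 3). The labels name no treatment or genetic change of the cells. Summed over listed positions, the depth was 17063930 to 22485865 per imbalanced library and 22974020 to 34367262 per balanced library. HepG2 identity was checked by counts of listed positions only: 7 of 8 hepatocyte genes, among them ALB and APOB, had some under imbalanced dNTP, while FGB had 0. The nuclear RNAs NEAT1 and MALAT1 had 13880 and 4892 listed positions there, and the mitochondrial rRNAs MT-RNR1 and MT-RNR2 had 208 and 640.

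The stretch that carried the imbalanced dNTP positions and the 5 positions that met the site criteria are shown first, because all values below refer to them. The stretch spans positions 232 to 321 (chr6:52995852-52995941, hg38, plus strand), and capitals mark those 5 positions. Below it, each position is shown with 7 bases on either side, and capitals mark the position and its immediate neighbours.
7SK 232 to 321: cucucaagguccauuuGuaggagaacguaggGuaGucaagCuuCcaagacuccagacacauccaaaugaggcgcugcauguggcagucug
G248: uccauuUGUaggaga
G263: acguagGGUagucaa
G266: uaggguAGUcaagcu
C272: agucaaGCUuccaag
C275: caagcuUCCaagacu

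Listed positions of 7SK were confined to parts of the RNA, and the parts differed between the reactions. Under imbalanced dNTP all 31 lay between positions 232 and 321. Under balanced dNTP 8 lay between 8 and 101 and the other 19 between 219 and 327. The 117 nt from 102 to 218, which hold 96 G, A or C, had no listed position in either table.

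The depth rose and then fell along the 3′ part in all 6 libraries, though its levels at the 2 ends differed between replicates. At position 263 it was 157, 118 and 187 reads under imbalanced dNTP and 319, 232 and 285 under balanced dNTP in replicates 1, 2 and 3. At position 232 it was 42, 26 and 46 reads under imbalanced dNTP. At position 321 it was 14, 28 and 35. Over the 5′ positions of the balanced libraries the depth stayed at 43 reads or fewer.

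Minimum free energy folding of the sequence with RNAfold gave 5 stem loops of at least 5 base pairs when pairs were limited to a span of 120 nt. The first spans positions 4 to 101 and corresponds in place to the 5′ hairpin that HEXIM proteins are known to bind. The next ones span 117 to 147, 150 to 177 and 182 to 288, and the fifth, the 3′ terminal hairpin known as the LARP7 binding site, spans 299 to 325. Under imbalanced dNTP the fourth held 25 listed positions and the fifth held 5, with 1 between them and 0 in stem loops 1 to 3. Under balanced dNTP the counts were 8 in the first, 14 in the fourth, 2 in the fifth, 3 outside all stem loops and 0 in stem loops 2 and 3. The imbalanced data therefore say nothing about the HEXIM-binding hairpin, and its comparison with the last hairpin could not be made.

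The genome holds many copies of 7SK, and their likeness to the gene varied along the RNA. GENCODE names 293 RN7SKP pseudogenes. Outside RN7SK, 284 alignments were found on the assembled chromosomes. For 50 nt windows taken every 10 nt, the count of other loci within 3 edits had a median of 31 (range 7 to 80) for the 19 windows that end before position 232. Among these, the windows from 91 to 140 through 131 to 180, mostly within the unlisted 102 to 218, had only 7 or 8. The count was 8 or 9 for the 4 windows wholly inside 232 to 321. The study's read mapping allowed 3 edits over a whole read, not over a window. Bases inserted in a copy were not counted as edits here. Each of the 19 upstream windows had a copy without any edit, and each of those 4 had none closer than 1 edit. The part of these copies in the depth pattern was not tested. Among the pseudogenes, 4 had 7 listed positions in all under imbalanced dNTP, at a depth of at most 23 reads, and 0 had any under balanced dNTP.

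**Figure D1:**
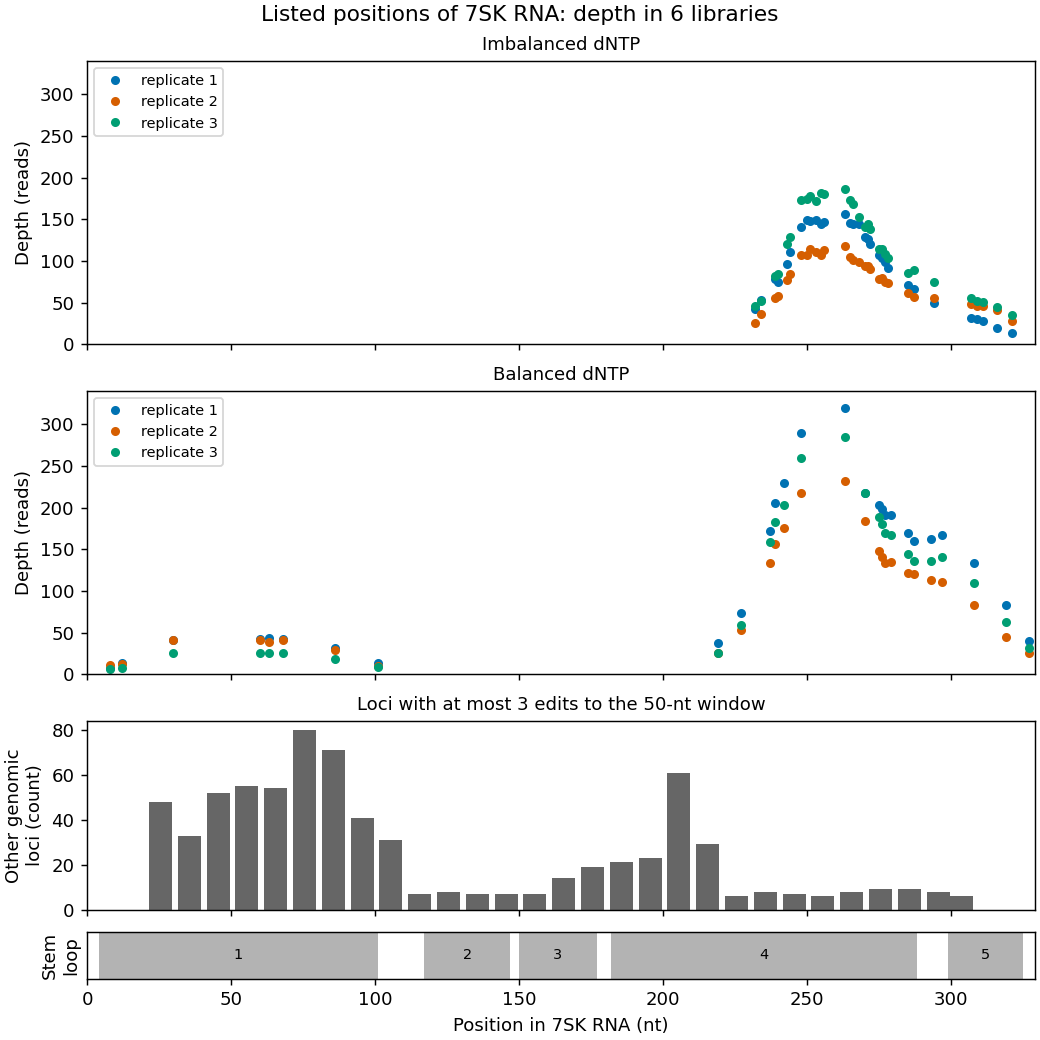
Depth in reads at each listed position of 7SK against the position in the RNA, for 3 imbalanced and 3 balanced dNTP libraries. Bars count other genomic loci within 3 edits of each 50 nt window, and grey boxes are the 5 predicted stem loops. Imbalanced dNTP positions begin at 232, beyond which the bars are at 9 or fewer. No library has a listed position between 102 and 218, where bars are as low as 7.

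The highest well-covered mutation ratio in 7SK was at G248, in the fourth stem loop. The mutation ratio is the share of reads with T among all reads at a position. Under imbalanced dNTP, 13 of 141, 11 of 107 and 15 of 173 reads at G248 held T. These are mutation ratios of 9.22%, 10.3% and 8.67% (95% Wilson intervals 5.47 to 15.1%, 5.84 to 17.5% and 5.32 to 13.8%), with a mean of 9.39% ± 0.818 (SD, n = 3). Under balanced dNTP, 0 of 289, 1 of 218 and 1 of 260 reads held T. The 0 of 289, read as at most 3 counts, allows a ratio of up to 1.04%. All imbalanced libraries lay above all balanced ones, and the intervals cover counting error only.

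G248 had U on both sides, the UNU context. Among 10385 listed G positions of the series with at least 100 reads in all imbalanced libraries, 9.23% had a mean ratio as high or higher. Among the 1179 of those G positions in the context UGU, the share was 45.2% and the median ratio 8.90%. At G positions in other contexts the median was 2.53%.

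The other positions that met the site criteria had lower or more variable ratios. The criteria require, in each of the 3 replicates, a depth of at least 10, at least 3 reads with T and a ratio over 3 times that of the paired balanced library, which is taken as 0 where the position is not listed. The study also required a ratio above that of a spike-in background. That criterion was not applied here, so a passing position is not necessarily a site by the study's standard. 5 of the 31 listed positions passed (16.1%, 95% Wilson interval 7.09 to 32.6%). The interval treats positions as independent, although neighbouring positions share reads and libraries, so it does not measure the uncertainty of the share. Over the whole series 29651 of the 110980 listed positions with that depth passed, which is 26.7%. NEAT1 and MALAT1 together gave 14333 of those passing positions, from 18763 with that depth. No difference between 7SK and the series is read from these shares.

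At G263, 15 nt downstream of G248, 7 of 157, 3 of 118 and 3 of 187 reads held T (4.46%, 2.54% and 1.60%), against 0 of 319, 1 of 232 and 0 of 285 under balanced dNTP. At G266 the ratios were 3.45%, 3.96% and 2.38%, from 5, 4 and 4 reads with T. At C272 they were 7.50%, 3.30% and 2.16%, from 9, 3 and 3 reads. Neither G266 nor C272 was listed under balanced dNTP. At C275 they were 2.80%, 6.41% and 6.14%, from 3, 5 and 7 reads, against 0 of 203, 0 of 148 and 1 of 189 under balanced dNTP.

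Each of these 4 positions had at least 1 library with 3 or 4 reads with T, at or next to the minimum of 3. All 5 passing positions were in the fourth stem loop and paired in the predicted fold, in which 17 of the 31 listed positions were paired. The number of other genomic loci within 3 edits of the 50 nt around the 5 positions was 6 to 9, and 0 of those loci had T at the position. Among all aligned loci, T was present in 2 at G263, 1 at G266, 2 at C272, 1 at C275 and 0 at G248. The part of copies in these ratios was not tested.

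**Figure D2:**
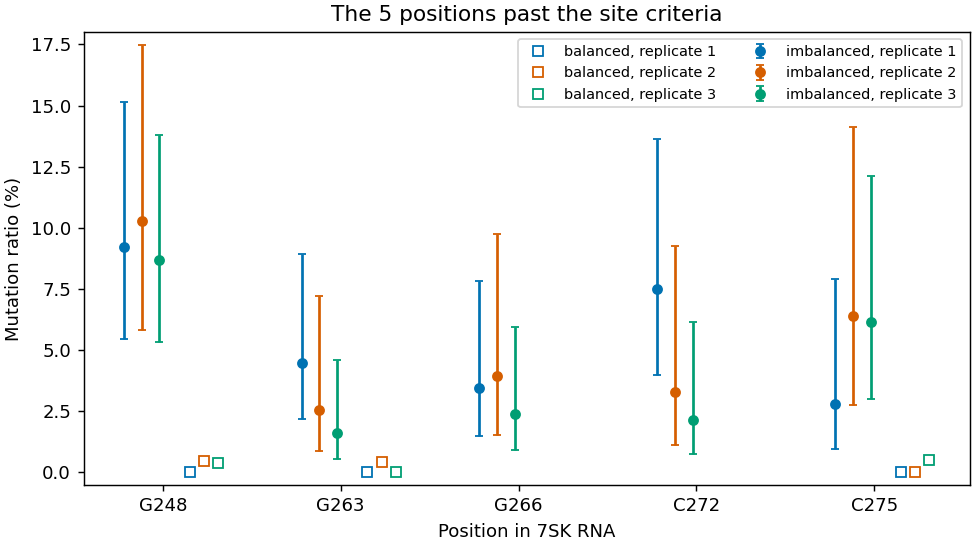
Mutation ratio in percent at the 5 positions of 7SK that met the site criteria. Filled circles are imbalanced dNTP libraries with 95% Wilson intervals and open squares are balanced dNTP libraries, which list G248, G263 and C275 only. G248 lies between 8.67 and 10.3% in all 3 replicates, and the balanced ratios lie at 0.529% or below.

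The 26 listed positions that did not pass met the criteria in fewer replicates, 21 of them in 1 and 5 in 2. G240, A244, A250, A277 and G311 were the 5 that met them in 2. At 18 of the 31 positions no library had more than 3 reads with T, and at 14 positions at least 1 library had 0. The intervals of the 3 libraries overlapped at all 31 positions.

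9 positions had at least 100 reads in all imbalanced libraries. After G248, the highest means among them were G266 with 3.26% ± 0.806, G263 with 2.87% ± 1.45 and A250 with 2.00% ± 1.23 (SD, n = 3). The lowest were A253 with 0.865% ± 1.04, A255 with 1.18% ± 0.790 and A256 with 1.22% ± 1.42. The lowest 3 were A bases just downstream of G248, at 172 to 182 reads in replicate 3.

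**Figure D3:**
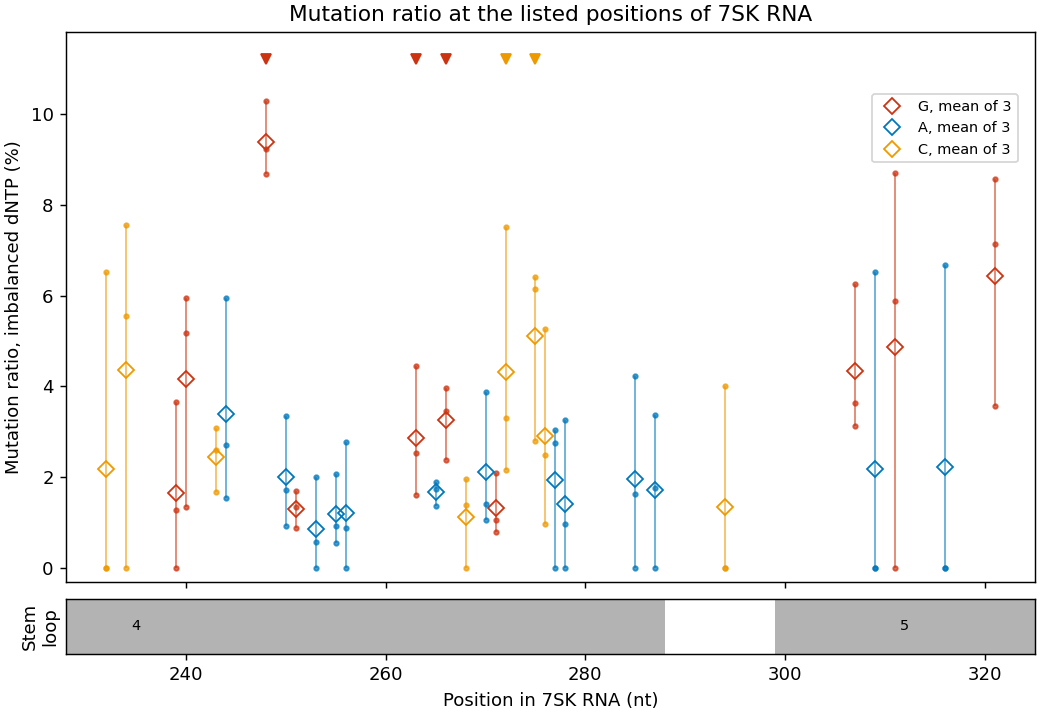
Mutation ratio in percent under imbalanced dNTP at the 31 listed positions against the position in 7SK. Points are the 3 replicates, lines join the lowest and highest, diamonds are means, colours give the base and triangles mark the 5 passing positions. G248 has a mean of 9.39% and a narrow range, while positions past 300, at 14 to 55 reads, range from 0 to 8.70%.

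Summed over the 9 positions in both tables, the mutation ratio was higher under imbalanced dNTP in all 3 pairs. The pooled ratio was 3.78%, 3.31% and 3.84% under imbalanced dNTP and 0.154%, 0.413% and 0.284% under balanced dNTP in replicates 1, 2 and 3. The difference was 3.36 ± 0.404 percentage points (SD, n = 3 pairs), with the same sign in 3 of 3 pairs. In a two-sided exact paired permutation test p was 0.25, the smallest that 3 pairs allow, and adjusted p over the 8 comparisons of this kind made here ran from 0.50 to 0.75. Changes to bases other than T were at 0.203% ± 0.142 under imbalanced and 0.259% ± 0.0747 under balanced dNTP, so the values for both reactions overlapped. Every position of the imbalanced table had at least 3 reads with T in some library, whereas the balanced table held positions with 1. This listing favours a higher ratio under imbalanced dNTP at shared positions throughout the series.

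Position by position, edgeR called 5 of the 9 shared positions higher under imbalanced dNTP and 0 lower. Over all 32284 positions tested, 74.3% were called higher and 0.0589% lower, and the share in 7SK was 55.6% (95% Wilson interval 26.7 to 81.1%). This interval, too, treats neighbouring positions as independent. The median log2 difference was 2.95 over the 9 positions and 3.94 over all. G248 had a log2 difference of 5.00 ± 0.85 (SE, adjusted p = 1.39e-08). C275 followed with 4.29 ± 1.26 (adjusted p = 0.00115) and G263 with 4.15 ± 1.25 (adjusted p = 0.00163). A270 had 3.30 ± 1.44 (adjusted p = 0.0313) and C276 had 2.69 ± 1.29 (adjusted p = 0.0496).

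The 4 shared positions that edgeR did not call were G239, A277, A285 and A287, with log2 differences of 1.64 to 2.95 and adjusted p of 0.0786 to 0.298. With any 1 replicate left out, edgeR called 1 or 2 of the 9, and G248 was called each time (adjusted p = 0.00229, 0.000456 and 0.000776 without replicate 1, 2 and 3). With Fisher's exact test in each replicate, G248 was the only position of 7SK called in all 3.

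The depth of 7SK was lower under imbalanced dNTP by about as much as elsewhere. Summed over the 9 shared positions, imbalanced over balanced depth was 0.488, 0.499 and 0.621 in replicates 1, 2 and 3. The median over all 35761 shared positions was 0.500, 0.661 and 0.714, with interquartile ranges of 0.410 to 0.600, 0.539 to 0.794 and 0.600 to 0.842. The 7SK value was inside the range in replicates 1 and 3 and below it in replicate 2.

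Over listed positions, G had the highest pooled mutation ratio of the 3 bases of 7SK in every imbalanced dNTP library. Pooled over 10 listed G positions, it was 3.39%, 4.03% and 3.80%. Over 13 A positions it was 2.22%, 1.49% and 1.65%, and over 8 C positions 3.06%, 2.58% and 3.32%. G exceeded A by 1.95 ± 0.702 percentage points (SD, n = 3; exact paired permutation test, p = 0.25) and C by 0.752 ± 0.608 (p = 0.25 by the same exact test), each in 3 of 3 libraries. Without G248, chosen for this after its value was seen, G exceeded A by 0.991 and stood 0.211 below C, so the order of G and C rests on that position. If unlisted positions of 232 to 321 held 0 to 2 reads with T at neighbouring depth, the bases' ranges would overlap in each replicate. In replicate 1 they would be 1.54 to 2.88% at G, 1.38 to 2.39% at A and 1.40 to 3.19% at C. No order of the bases over the whole stretch is therefore read.

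Positions in the UNU context had higher ratios, and these too rest largely on G248. 7SK has 14 G, A or C in that context, of which C234, G248 and G311 were listed under imbalanced dNTP. C234 had 4 of 53, 2 of 36 and 0 of 52 reads with T. G311, in the terminal hairpin, had 0 of 28, 4 of 46 and 3 of 51. The excess over other contexts of the same bases was 3.70 ± 2.47 percentage points (SD, n = 3; exact paired permutation test, p = 0.25). It was 1.87 without G248 (p = 0.50 by the same exact test).

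By pairing in the predicted fold, C had lower ratios at unpaired than at paired positions in each library, A did not, and unpaired G was a single position. With G, A and C weighted equally, unpaired minus paired was -0.375 ± 1.504 percentage points (SD, n = 3; exact paired permutation test, p = 0.75), and it turned to 0.429 without replicate 1. The unpaired G was G311, at 28 to 51 reads. Over A and C only, a choice made after the data were seen, the difference was -1.17 ± 0.162, lower in 3 of 3 libraries (p = 0.25 by the same exact test). At C the pooled ratio was 4.46%, 4.10% and 4.35% over 3 paired positions and 2.23%, 1.72% and 2.72% over 5 unpaired ones. At A it was 2.35%, 1.24% and 2.25% over 5 paired positions and 2.13%, 1.64% and 1.28% over 8 unpaired ones. With all bases pooled, where 9 of the 17 paired positions and 1 of the 14 unpaired ones were G, it was -1.23 ± 0.206. A comparison of the fourth stem loop with the terminal hairpin, chosen after the data were seen and made over G and A, gave -0.959 ± 2.18 (SD, n = 3; exact test, p = 0.50), which is smaller than its spread between libraries. In the terminal hairpin, at 14 to 55 reads per position, the pooled ratio over G and A was 1.61%, 5.26% and 4.62%, from 2, 11 and 11 reads with T in all. In the fourth stem loop it was 3.45%, 3.55% and 3.54% at G and 2.30%, 1.32% and 1.56% at A.

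7SK was set beside RMRP and RPPH1, the RNA subunits of RNase MRP and RNase P and likewise products of RNA polymerase III. With G, A and C weighted equally, the ratio at listed positions was 2.89%, 2.70% and 2.92% in 7SK, 2.97%, 3.08% and 2.92% in RMRP and 3.04%, 2.96% and 2.85% in RPPH1. 7SK minus RMRP was -0.153 ± 0.207 percentage points and 7SK minus RPPH1 was -0.112 ± 0.174 (SD, n = 3; exact paired permutation tests, p = 0.50 for both). Both differences were smaller than their spread between libraries. Without G248 they were -0.474 ± 0.227 and -0.433 ± 0.203, lower in 7SK in 3 of 3 libraries (exact tests, p = 0.25 for both). The highest positions of RMRP and RPPH1 were kept, so this removal could only lower the differences. Over the positions in both tables, 9 of them in 7SK with G248 included, they were 0.708 ± 0.426 and 0.708 ± 0.388, higher in 3 of 3. Without replicate 2 they were -0.0367 and -0.0375. Medians over positions turned 7SK minus RMRP to 0.388.

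These values were not drawn alike from the RNAs. RMRP had all 214 of its G, A and C positions listed, at a median depth of 2037, 1816 and 2347 reads, RPPH1 had 209 of 277, and 7SK had 31 of the 70 in its covered stretch at a median of 104, 78 and 114 reads. If each of the 39 unlisted positions of the stretch held 0 to 2 reads with T at the depth of its neighbours, the pooled ratio of the stretch would be 1.44 to 2.78%, 1.23 to 2.81% and 1.35 to 2.43% in replicates 1, 2 and 3. The pooled ratio of RMRP was 3.02%, 3.14% and 2.96%, above these ranges in every library. By base, the upper limits lay under the RMRP ratio in 3 of 3 libraries for A and for C and in 2 of 3 for G. These limits were added after the data were seen and rest on the listing rule described above.

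Single positions as high as G248 were uncommon in the other RNAs. In RMRP and in RPPH1, 2 of 74 G positions each with at least 100 reads had a mean ratio of 9.39% or more. The 3 UGU positions of RMRP had means of 4.94%, 0.858% and 1.96%, and the 2 of RPPH1 had 7.16% and 10.2%. 96.7% of the RMRP positions and 50.2% of the RPPH1 positions with a depth of at least 10 passed the site criteria. Signal recognition particle RNA had only 2 listed positions in RN7SL1 and 5 in RN7SL2 under imbalanced dNTP, none of them A, and 0 passed, so 7SK was not compared with it.

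**Figure D4:**
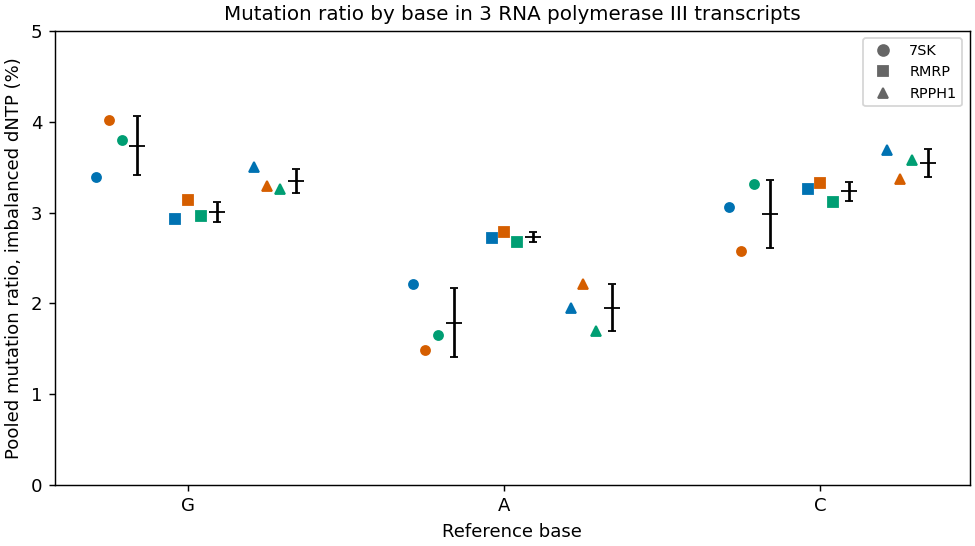
Mutation ratio in percent under imbalanced dNTP, pooled over listed positions of each base, in 7SK, RMRP and RPPH1. Colours are replicates 1 (blue), 2 (orange) and 3 (green), and black bars give the mean ± SD of the 3. G is above A in every library of all 3 RNAs, and A of 7SK, like A of RPPH1, lies below A of RMRP in each library.

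Of all 99 genes with at least 20 positions of each base at 100 reads or more, the 3 nearest to 7SK in the ratios of G, A and C over the 3 imbalanced libraries were SNORD10, EIF4A1 and ENSG00000264772. The Euclidean distances over these 9 log2 ratios were 0.61, 0.74 and 0.74. The 3 genes overlap on 1 strand and share listed positions, and SENP3-EIF4A1 had the same distance and base means as EIF4A1. SNORD10 had means of 3.78% at G, 1.77% at A and 3.04% at C, beside 3.74%, 1.79% and 2.99% in 7SK, which itself has fewer positions than this rule asks of the others. The 7SK means cover only the 31 listed of 70 G, A or C in its stretch, so the distances depend on that listing.

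The transcripts of the proteins that work with 7SK had few positions past the site criteria. Of 15 genes of the 7SK particle and of P-TEFb and its partners, 8 had listed positions under imbalanced dNTP and 2 had any that passed the site criteria. Of their positions, 433 were covered by 10 reads or more in each imbalanced library and 12 passed, beside 26.7% over the series, a share raised by NEAT1 and MALAT1. HNRNPA2B1, an hnRNP that binds 7SK, had 11 of 265 passing, and ELL2, a subunit of the super elongation complex, had 1 of 159. Over all listed positions the median of the lowest depth was 13 reads in HNRNPA2B1 and 8 in ELL2. LARP7, MEPCE, HEXIM1, HEXIM2, CCNT1 and DDX21 had 0 listed positions in either table, while CDK9 had 1 under balanced dNTP only. Listing depends on reads with T, so the depth of these genes at unlisted positions is not known.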

How the data were processed

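Nm-mut-seq libraries of HepG2 chromatin-associated RNA were read single-end over 100 nt. The study's methods name TopHat2 with hg38 for alignment, after Cutadapt and deduplication by molecular identifier in BBMap, and JACUSA for base changes to T. The deposited values are counts of reads with each base per position, strand and library. Every count column was assigned to a library, and JACUSA's score was not used. Spike-in background was not analysed here, so the study's criterion on it was left out. 1 gene of the list of 7SK partners is not reported here.

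Members and lists were chosen with earlier results of these data known. Positions named are the highest and lowest in mean ratio at a depth of at least 100, and those past the criteria. Reads with and without T were fitted by the quasi-likelihood method of edgeR 4.0.16 under R 4.3.3 (Benjamini-Hochberg over all positions, SE as the log2 difference over the root of F), with effects of library, replicate block and reaction. Simulated 8-fold changes at 200 of 32284 positions were recovered at 89.5%, with 5 false calls. The simulation did not imitate the listing by reads with T, so its false calls do not measure error under that listing. Alternatives were Fisher's exact test and DESeq2 1.42.0. Folding used ViennaRNA 2.7.2 at 37 °C, and copies were found with blastn 2.17.0.

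Same-numbered libraries share 1 ligated RNA per the labels, which is where the pairing comes from. Their depth deviations correlated at 0.398, 0.254 and 0.633, but those of replicates 1 and 2 also did across numbers (0.292 and 0.252), so this check sets only replicate 3 apart. P-values of the exact permutation tests rest on the values of these 3 replicates. Those of edgeR also draw on dispersion shared over all positions tested, and Fisher's exact test within a replicate covers counting error only. Precision follows the depth printed with each value.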

Additional observations from a re-analysis of the deposited data

How the results depend on the processing

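The direction of the difference between reactions over the shared positions (2.34 to 3.59 percentage points), of G minus A and of UNU minus other contexts held under each alternative that could be computed. G minus C turned to -0.211 without G248. Unpaired minus paired bases ran from -1.06 to 0.429 with each replicate left out. 7SK minus RMRP turned to 0.388 with medians over positions; the cause was not tested. Restricted to positions in both tables, 7SK minus RMRP and 7SK minus RPPH1 turned to 0.708 each without any subtraction, and were 0.517 and 0.586 after subtraction of the balanced ratios there. The count of positions past the site criteria was 5, but 3 at a depth of at least 100, 1 with at least 10 reads with T, 1 with a ratio of at least 0.05, 0 with a ratio of at least 0.1, 3 with listed input only and 0 with the reactions exchanged. The edgeR count was 5 with the replicate block and 6 without it, 1 to 2 with each replicate left out and 1 with Fisher's exact test in every replicate. A depth of at least 100 left no C, so that setting gave no value for G minus C or for the RNAs compared. First minus last stem loop and 7SK minus 7SL could not be computed, for want of listed positions. Removing G248, restricting to positions in both tables without subtraction, leaving G out of the comparison by pairing or pooling its bases, and comparing the fourth stem loop with the terminal hairpin were chosen after seeing the data. Depth limits most positions: at 100 reads, 3 reads with T are a ratio of 3%.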
